A study of Mus musculus with 6 samples.

Results

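MHC class I antigen presentation genes were followed in MIN6, an insulin-secreting line from a mouse insulinoma that serves as a model of the pancreatic β-cell. The 9 genes are the classical heavy chains H2-K1 and H2-D1, their light chain B2m, the peptide transporter subunits Tap1 and Tap2, the loading factor Tapbp, the immunoproteasome subunits Psmb8 and Psmb9, and the transactivator Nlrc5. They were chosen by symbol for their role in the pathway, with earlier results of these data known, and are 9 of the 22298 genes in the deposited table. RNA-seq was performed on 6 samples, 3 of the control group and 3 of the chronic epinephrine group, to examine how prolonged exposure to this adrenal stress hormone alters gene expression in β-cells. Both groups are the same line, with no genetic change named in the labels. The study's methods describe epinephrine at 100 nM over 3 days and then 2 days without it, and do not say whether RNA for sequencing was taken before or after withdrawal. The methods call the samples of a group independent biological replicates, the labels do not say how they were kept apart, and p-values measure the spread between these samples. All 6 samples come from a single tumour-derived line in culture, which limits what they show of β-cells in an islet.

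Class I molecules carry peptides from inside the cell to its surface, where CD8+ T cells read them, a step of interest in islets because such T cells attack β-cells in type 1 diabetes. Proteasomes cut proteins into peptides, the TAP transporter moves these into the endoplasmic reticulum, and a loading complex that includes tapasin fits them into a heavy chain paired with β2-microglobulin. Interferons raise most of these genes together, in part by inducing NLRC5, and the induced immunoproteasome subunits then take the place of the constitutive ones in new proteasomes.

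Promoter windows from 250 bases before to 50 after the annotated start were available in RefSeq (GRCm38.p6) for 7 of the 9 members, all but Tap2 and Nlrc5. The windows of the heavy chains, of B2m and of Tap1 are shown because they carry, to differing degrees, the elements through which class I genes are known to be regulated together. Capitals mark matches on either strand to the longest palindrome of the H2-K1 window (TGGGGATTCCCCA, an NF-κB type site), the interferon regulatory factor (IRF) core AANNGAAA, the cyclic AMP response core TGACG and the CCAAT box.
H2-K1: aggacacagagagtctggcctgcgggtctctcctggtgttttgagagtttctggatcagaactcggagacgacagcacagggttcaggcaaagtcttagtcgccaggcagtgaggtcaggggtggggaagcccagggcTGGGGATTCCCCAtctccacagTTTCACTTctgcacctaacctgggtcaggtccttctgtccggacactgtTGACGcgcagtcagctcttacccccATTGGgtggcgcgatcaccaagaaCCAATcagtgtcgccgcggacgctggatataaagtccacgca
H2-D1: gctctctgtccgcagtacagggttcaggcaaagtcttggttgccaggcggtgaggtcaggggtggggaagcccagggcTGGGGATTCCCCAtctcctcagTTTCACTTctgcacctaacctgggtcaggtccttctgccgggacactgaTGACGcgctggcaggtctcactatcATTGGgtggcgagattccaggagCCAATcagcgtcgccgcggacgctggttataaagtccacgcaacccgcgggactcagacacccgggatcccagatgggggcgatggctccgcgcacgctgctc
B2m: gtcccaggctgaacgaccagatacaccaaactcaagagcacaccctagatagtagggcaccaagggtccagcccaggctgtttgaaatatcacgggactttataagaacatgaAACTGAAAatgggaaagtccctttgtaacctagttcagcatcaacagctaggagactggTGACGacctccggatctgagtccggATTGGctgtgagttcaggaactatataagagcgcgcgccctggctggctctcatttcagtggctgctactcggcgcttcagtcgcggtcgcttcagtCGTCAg
Tap1: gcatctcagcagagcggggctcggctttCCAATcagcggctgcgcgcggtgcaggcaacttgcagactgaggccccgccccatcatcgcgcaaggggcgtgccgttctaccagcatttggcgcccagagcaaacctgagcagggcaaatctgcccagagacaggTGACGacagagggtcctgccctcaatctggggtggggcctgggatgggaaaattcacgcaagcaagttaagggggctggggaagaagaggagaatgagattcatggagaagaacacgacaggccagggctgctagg
These are chr17:34000298-34000597 on the minus strand, chr17:35262844-35263143 on the plus strand, chr2:122147437-122147736 on the plus strand and chr17:34187306-34187605 on the plus strand. Positions are counted from the start site as +1, with no position 0, and give the first base of a match. The palindrome and the IRF core lay at -112 and -90 in the H2-K1 window and at -172 and -150 in the H2-D1 window, followed in both by TGACG and a pair of CCAAT boxes. The heavy chain windows shared an identical run of 47 bases. The H2-K1 gene has 2 windows in RefSeq and the first is shown, in which a TATAAA match lies after the start site, at 36. In the H2-D1 window the TATAAA match lies at -26, so the positions given for these windows depend on the annotated start.

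The palindrome was found in 0.0122% of the 32851 windows of this length, which belong to 3 genes, H2-K1, H2-D1 and H2-Q6, and all 3 also held the IRF core, which occurred in 23.9% of windows. The B2m window had no match to the palindrome, and held the IRF core at -137, TGACG (in 20.8% of windows) at -78 and 45 and a CCAAT box (in 37.4%) at -53. The Tap1 window had no match to the palindrome or the IRF core and held a CCAAT box at -222, a GC box (GGGCGG, in 35.7% of windows) at -176 and TGACG at -86. Its first 275 bases are also part of the Psmb9 window, because the genes start 226 bases apart on opposite strands. TATAAA and CCACG were searched as well and were present in 13.6% and 32.8% of windows. No matches overlapped one another in the printed windows. Each match is a description of the sequence, and no factor binding was measured.

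Expected counts summed to 15017100 to 18127200 per sample, and 3 counts, the limit of detection used here, corresponded to between 0.165 and 0.200 CPM (counts scaled to the library total). Control 1 stood apart from the other libraries, with a Pearson r of log2 CPM across genes of at most 0.981 to the other controls, against 0.995 between controls 2 and 3 and 0.994 to 0.995 among the epinephrine samples. Relative to controls 2 and 3, its median log2 difference was -0.19 over genes of the shortest tertile of transcript length and 0.17 over the longest, and -0.22 and 0.19 over the tertiles of lowest and highest GC content. Controls 2 and 3 in turn held hepatocyte transcripts. The FPKM of 15 hepatocyte markers, which scales for transcript length and library, summed to 14.7, 49.2 and 112 in controls 1, 2 and 3 and to 12.9 to 14.0 after epinephrine, with Alb (albumin) at 0.10, 16.7 and 40.3 in the controls. Members and the other genes named from the lists are therefore given with and without control 1 wherever leaving it out changed the call. The fit without it compares the epinephrine samples with the controls that hold hepatocyte transcripts. In that fit 12 of the 15 hepatocyte markers were tested and 10 fell (83.3%, against 9.46% of all genes). Their median log2 fold change was -6.97. The 20 β-cell markers were all tested, and Ins2 (insulin 2) was the most abundant, at a log2 fold change of 0.01 (FDR 0.974), and -0.15 (FDR 0.0205) without control 1. Of these markers 15 had a log2 fold change below 0, and 3 fell, the glucose transporter Slc2a2 (-0.76, FDR 0.00434), Ucn3 (-0.74, FDR 0.00868) and Ins1 (-0.50, FDR 0.0152). Chgb, a granule protein, rose (0.47, FDR 0.0319). Those that fell were 15% of the list, against 0.612% of all genes. Without control 1 the list had 9 that fell (45%, against 9.46% of all genes) and 3 that rose (15%, near the 12.1% of all genes). In bulk RNA, fewer cells of a type and less RNA per cell cannot be told apart.

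All 9 members passed the filter on low counts, and none was differentially expressed at a false discovery rate (FDR) under 0.05 by edgeR's quasi-likelihood test, a threshold that 2.63% of the 12747 tested genes passed, 2.02% higher and 0.612% lower, and 0.722% passed with at least 2-fold. DESeq2, which called 5.07% of the 14378 genes it adjusted, also called 0 members. Psmb9, lower after epinephrine, was the 1 member at an unadjusted edgeR p under 0.05, as were 17.1% of all genes, 9.19% higher and 7.91% lower. The differences were small and ran in opposite directions within the pathway. The normalized CPM of the groups did not overlap for 5 members, of which H2-K1, H2-D1 and B2m were higher and Psmb8 and Psmb9 lower after epinephrine. Such separation was seen in 27.3% of all genes, 14.3% higher and 13% lower. An exact permutation test of each of these 5 genes, two-sided, gave p = 0.1, below which 3 samples against 3 cannot go. Without control 1, 21.6% of 12966 tested genes passed the FDR threshold, and 3 members did so, with H2-K1 and Tap1 higher and Psmb9 lower.

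**Figure D1:**
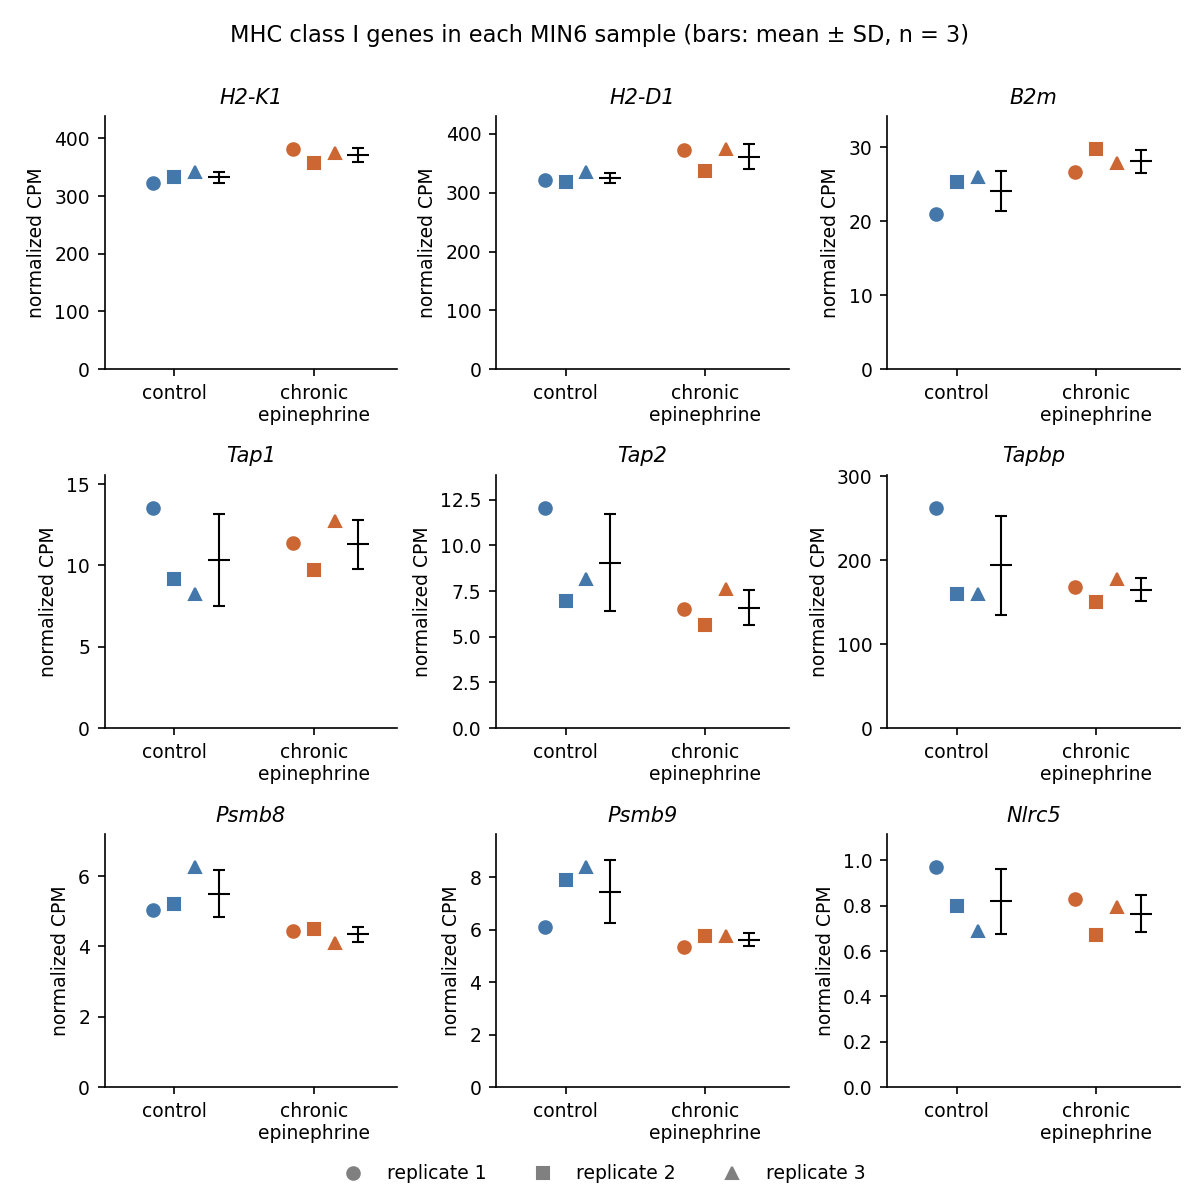
Normalized CPM (vertical axes, linear from 0) of each class I gene in the 3 control and 3 chronic epinephrine samples, with replicate numbers as symbols and bars for mean ± SD. H2-K1, H2-D1 and B2m sit higher and Psmb8 and Psmb9 lower after epinephrine with no overlap between groups, while control 1 is the highest sample for Tap1, Tap2, Tapbp and Nlrc5.

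The heavy chains, which form the peptide groove, were the most abundant members. H2-K1 (ENSMUSG00000061232, chromosome 17 from 33996017 to 34000347, minus strand) had 323, 333 and 342 CPM in controls 1, 2 and 3 and 382, 358 and 374 CPM in chronic epinephrine 1, 2 and 3. Every epinephrine sample lay above every control. The means were 333 ± 9.28 and 371 ± 12.1 CPM (SD, n = 3), and the log2 fold change was 0.16 (SE 0.08, 95% interval -0.02 to 0.34, FDR 0.347). H2-D1 (ENSMUSG00000073411, chromosome 17 from 35262730 to 35267499, plus strand) had 322, 319 and 335 CPM in the controls and 372, 337 and 374 CPM after epinephrine. Its groups were likewise separate, although chronic epinephrine 2 was only slightly above control 3. Its log2 fold change was 0.15 (SE 0.08, interval -0.04 to 0.34, FDR 0.392). Without control 1 the log2 fold changes were both 0.14, with an FDR of 0.0463 for H2-K1 and 0.0518 for H2-D1. They were 0.09 (FDR 0.369) for H2-K1 and 0.11 (FDR 0.314) for H2-D1 with counts offset for the length and GC content of transcripts. The paralogs of the H2 family share sequence, and 9.63% of the 50-base windows of H2-K1 and 12.8% of those of H2-D1 also occur in other H2 genes, so the split of counts between them is uncertain.

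B2m (ENSMUSG00000060802, chromosome 2 from 122147686 to 122153083, plus strand), the light chain that pairs with class I heavy chains, had 20.9, 25.3 and 25.9 CPM in the controls. After epinephrine it had 26.7, 29.8 and 27.9 CPM. The epinephrine samples were all higher, but the lowest of them was close to controls 2 and 3, and control 1 was the lowest sample of the 6. B2m had a log2 fold change of 0.23 (SE 0.11, interval -0.03 to 0.48, FDR 0.347), and 0.14 (FDR 0.267) without control 1. It was -0.00 (FDR 0.999) when counts were offset for the length and GC content of transcripts, an alternative added after the data were seen. B2m is the shortest member, with a longest transcript of 860 bases, and has the lowest GC content of the 9 (41.2%). Per length, H2-K1 stood at 8.60, 7.24 and 7.19 times the FPKM of B2m in the controls and at 7.95, 6.61 and 7.36 times after epinephrine. The groups overlapped in this ratio (difference in log2 ratio -0.07, exact permutation p = 0.7) and in that of H2-D1 to B2m (-0.08, exact permutation p = 0.6).

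The peptide transport and loading genes showed no shared shift, and control 1 dominated their spread. Tap1 (ENSMUSG00000037321, chromosome 17 from 34187553 to 34197225, plus strand) had 13.5, 9.14 and 8.26 CPM in the controls and 11.4, 9.75 and 12.8 CPM after epinephrine. Control 1 was above all epinephrine samples, and controls 2 and 3 were below them. Its log2 fold change was 0.13 (SE 0.20, interval -0.32 to 0.58, FDR 0.777), 0.37 without control 1 (FDR 0.0436) and -0.00 without control 3. Tap2 (ENSMUSG00000024339, chromosome 17 from 34203527 to 34216321, plus strand) had 12.0, 6.97 and 8.13 CPM in the controls and 6.52, 5.66 and 7.60 CPM after epinephrine. Its groups overlapped through chronic epinephrine 3, which was above control 2. For Tap2 the log2 fold change was -0.46 (SE 0.22, interval -0.95 to 0.04, FDR 0.337), and -0.20 (FDR 0.406) without control 1.

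Tapbp (ENSMUSG00000024308, chromosome 17 from 33915899 to 33929292, plus strand) encodes tapasin, which bridges TAP and the heavy chain. It had 262, 160 and 159 CPM in the controls and 168, 150 and 177 CPM after epinephrine. Apart from control 1, the 5 other samples lay in a narrow band in which the groups were mixed. With all samples the log2 fold change was -0.23 (SE 0.19, interval -0.66 to 0.20, FDR 0.585), and it was 0.05 (FDR 0.625) without control 1. Relative to controls 2 and 3, control 1 was higher in log2 CPM by 0.71 for Tapbp, 0.64 for Tap2 and 0.61 for Tap1, more than for between 94.0% and 96.9% of tested genes. All 3 genes are in the middle tertile of length and the highest of GC content. H2-K1 and H2-D1, in the shortest tertile of length and the highest of GC content, were at -0.06 and -0.02, and Psmb9, in the same tertiles as the TAP genes, was at -0.39. The part of length and GC content in these deviations of control 1 was not tested. With counts offset for the length and GC content of transcripts, the log2 fold change was 0.19 (FDR 0.424) for Tap1. It was -0.41 (FDR 0.134) for Tap2 and -0.20 (FDR 0.355) for Tapbp.

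The TAP subunits form a heterodimer, so their ratio within a sample was also examined, after their values were seen. Per length, Tap1 stood at 1.38, 1.53 and 1.18 times Tap2 in the controls and at 2.04, 2.01 and 1.95 times after epinephrine. The epinephrine samples were tightly grouped and all above the controls, with a difference in log2 ratio of 0.56 (exact permutation p = 0.1) that was 0.57 without control 1. Over the 7 ratios computed in all, the Benjamini-Hochberg adjusted p was 0.175 for each ratio whose groups were separate.

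**Figure D2:**
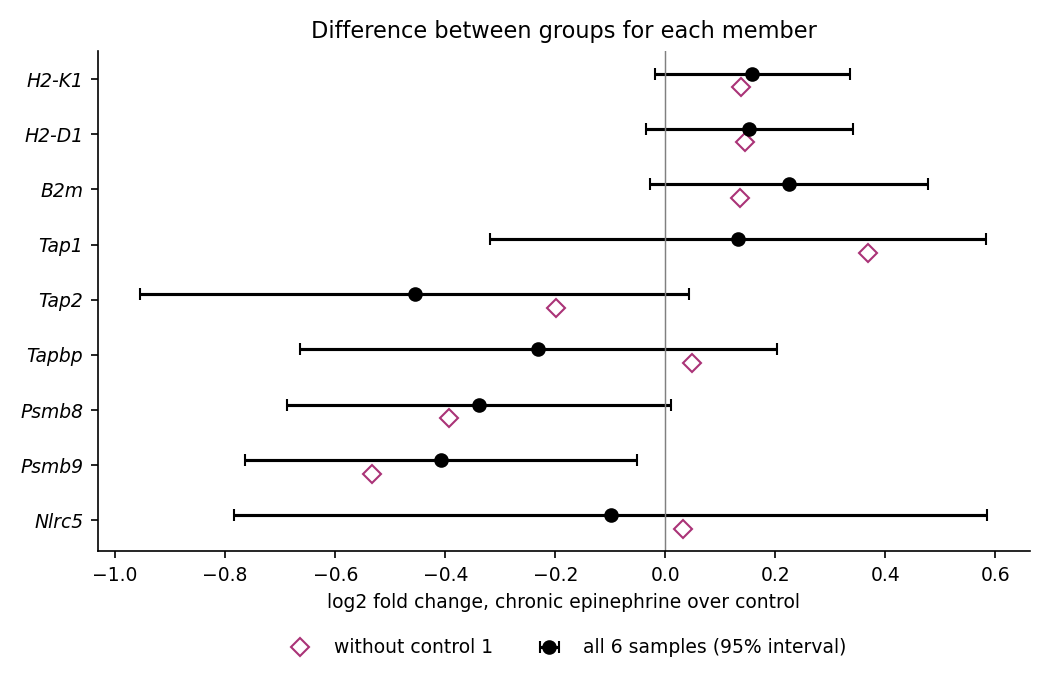
Log2 fold change of each class I gene, chronic epinephrine over control, from edgeR on all 6 samples (filled circles, bars for the 95% interval) and without control 1 (open diamonds). The interval lies wholly below 0 for Psmb9 alone, and leaving out control 1 moves Tap1, Tap2 and Tapbp most.

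The immunoproteasome subunits were lower after epinephrine, in the direction opposite to the heavy chains, but did not pass the FDR threshold. Psmb8 (ENSMUSG00000024338, chromosome 17 from 34197721 to 34201454, plus strand), the inducible subunit with chymotrypsin-like activity, had 5.05, 5.20 and 6.26 CPM in the controls and 4.45, 4.48 and 4.10 CPM after epinephrine. All epinephrine samples were below all controls. The log2 fold change was -0.34 (SE 0.15, interval -0.69 to 0.01, FDR 0.306), and -0.39 (FDR 0.122) without control 1. Psmb9 (ENSMUSG00000096727, chromosome 17 from 34181987 to 34187764, minus strand), which takes the place of the constitutive subunit Psmb6, had 6.09, 7.89 and 8.38 CPM in the controls and 5.34, 5.77 and 5.75 CPM after epinephrine. The epinephrine samples were close together below the controls, of which control 1 was nearest to them. The log2 fold change was -0.41 (SE 0.16, interval -0.76 to -0.05, FDR 0.227), and -0.53 (FDR 0.0103) without control 1. With counts offset for the length and GC content of transcripts, Psmb8 was at -0.41 (FDR 0.0944) and Psmb9 at -0.42 (FDR 0.137). Exons of Psmb9 overlap those of Tap1 on the other strand, and whether the counting used strand is not given in the sources used here. Exons of Psmb8, Tap2 and Nlrc5 likewise overlap those of non-member genes on the other strand, and exons of Tapbp those of Zbtb22 on the same strand. Psmb8 and Psmb9 have low counts, from 62 to 138 in a sample.

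Each immunoproteasome subunit was next set against the constitutive subunit whose place it takes, since a ratio within a sample does not depend on scaling between samples. By FPKM, Psmb8 amounted to 9.90%, 8.19% and 10.05% of Psmb5 in the controls and to 6.61%, 5.92% and 6.51% after epinephrine. Psmb9 amounted to 7.54%, 6.65% and 6.73% of Psmb6 in the controls and to 4.42%, 4.63% and 5.30% after epinephrine. Psmb10, the remaining inducible subunit and not a member, amounted to 9.59%, 6.06% and 5.32% of Psmb7 in the controls and to 4.52%, 4.62% and 5.23% after epinephrine. In each pair every epinephrine sample was below every control, narrowly so for Psmb10, and the constitutive form was the far more abundant in every sample. The differences in log2 ratio were -0.56, -0.55 and -0.50, each with an exact permutation p of 0.1. Without control 1 they were -0.52, -0.49 and -0.25.

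The constitutive subunits, the denominators of these ratios, were also examined. Of the 14 constitutive core subunits, 14 had a log2 fold change above 0, with a median of 0.18 against -0.00 over all tested genes. By edgeR and by DESeq2 0 of them were called. At an unadjusted edgeR p under 0.05 there was 1, higher (7.14% of the list, against 9.19% of all genes). Psmb5 was at 0.25 (SE 0.10, FDR 0.277), Psmb6 at 0.20 (SE 0.14, FDR 0.520) and Psmb7 at 0.16 (SE 0.17, FDR 0.693), and without control 1 they were at 0.15, 0.04 and -0.03. In control 1 the median deviation of these subunits from their mean over the 6 samples was -0.49 in log2 CPM, against 0.06 to 0.13 in the other samples. Leaving out control 1 gave 6 above 0 and 8 below, with a median of -0.01 and 1 called lower, Psma6 (-0.17, FDR 0.0439). This was 7.14% of the list, against 9.46% of all genes called lower in that fit. The inducible activator and subunit genes outside the members were lower in all 3 cases, Psme1 at -0.26 (SE 0.08, FDR 0.160), Psmb10 at -0.31 (SE 0.13, FDR 0.273) and Psme2 at -0.12 (SE 0.15, FDR 0.723). Without control 1, Psme1 and Psme2 fell, by 0.30 (FDR 0.00172) and 0.28 (FDR 0.00191) on the log2 scale. These 2 were 66.7% of the 3 genes, against 9.46% of all genes called lower in that fit.

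**Figure D3:**
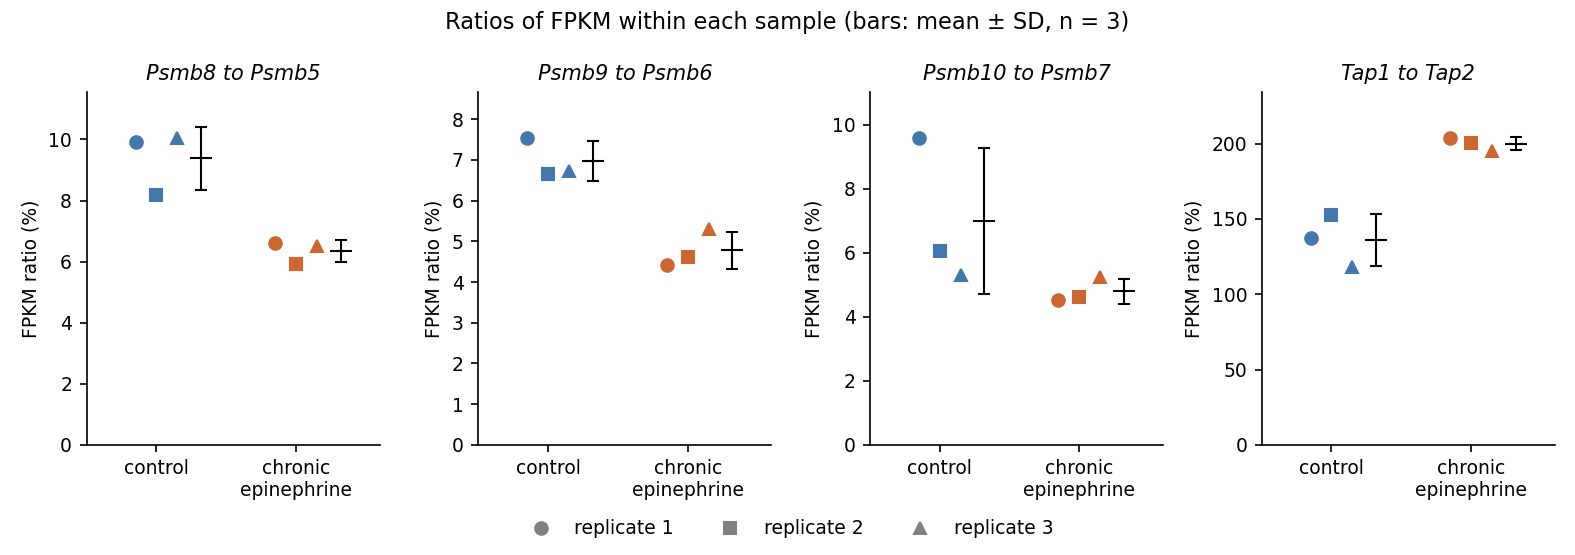
FPKM ratios in percent (vertical axes, linear from 0) in each control and chronic epinephrine sample, with bars for mean ± SD, for the 3 pairs of an immunoproteasome subunit and its constitutive counterpart and for Tap1 to Tap2. The subunit ratios are lower and the Tap1 to Tap2 ratio higher in every epinephrine sample, and control 1 sets the wide bar of Psmb10 to Psmb7.

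Nlrc5 (ENSMUSG00000074151, chromosome 8 from 94434356 to 94527272, plus strand), which drives class I promoters together with the RFX, CREB and NF-Y factors, was barely detected. It had 15, 14 and 11 expected counts in the controls and 14, 12 and 12 after epinephrine, above the 3 counts set as the limit of detection. The groups overlapped at 0.971, 0.800 and 0.688 CPM against 0.830, 0.672 and 0.793 CPM. The log2 fold change was -0.10 (SE 0.30, interval -0.78 to 0.59, FDR 0.901), and 0.0330 (FDR 0.975) without control 1. No difference was detected, and the interval does not settle differences that lie within it. The FPKM values did not follow the counts, at 0.13, 0.20 and 0.09 in the controls and 0.30, 0.11 and 0.18 after epinephrine, and limma on log2(FPKM + 1) gave a difference of 0.07 (FDR 0.750).

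Of 14 transcription factors that act on class I promoters, 13 were tested and 0 were called, with 2 at an unadjusted p under 0.05, both lower, against 7.91% of all genes. DESeq2 called 0 as well. The median log2 fold change was -0.13, and -0.03 without control 1, where 2 genes fell, 15.4% of those tested against 9.46% of all genes. Irf1, which binds the interferon response element, had 38.1, 41.1 and 34.7 CPM in the controls and 30.5, 31.2 and 32.0 CPM after epinephrine, all lower than the controls, at -0.28 (SE 0.09, FDR 0.172). It was one of the genes that fell without control 1 (-0.28, FDR 0.0101), and Creb1, which binds the cyclic AMP response element, was the other (-0.24, FDR 0.00371).

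By FPKM, which allows levels to be compared between genes, the members spanned a wide range in these cells. H2-K1 ran from 214 to 245 FPKM over the 6 samples with a median of 220.3, above 99.0% of all genes by its mean. H2-D1 followed at 154 to 180.0 (median 161), Tapbp at 56.1 to 101 (median 62.1) and B2m at 25.0 to 34.1 (median 30.4). These 4 were separate from one another in every sample, so heavy chain transcripts exceeded B2m transcripts per length throughout. Psmb9 (4.20 to 6.17, median 4.80), Psmb8 (3.74 to 5.79, median 4.41), Tap1 (2.78 to 4.95, median 3.54) and Tap2 (1.62 to 3.60, median 2.11) formed a group in which each gene's range overlapped that of the next. Nlrc5 was the lowest at 0.09 to 0.30 FPKM.

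The class I and class I-like heavy chains outside the members gave no calls in the main edgeR fit. With all samples edgeR called 1 with no filter, where 352 of all 17364 genes were called. It also called 1 with the offset for length and GC content, where 1329 of all 12742 genes were called. Of 16 listed, 15 were found by symbol, 10 were tested and 0 were called, with 2 at an unadjusted p under 0.05 (20%, against 17.1% of all genes), and their median log2 fold change was 0.07. Of the 10, 7 were above 0 and 3 below. DESeq2 called 1 of them, against 5.07% of all genes, and the median was -0.05 without control 1. H2-Q7, a non-classical heavy chain of the Qa-2 group, came closest, with 11.3, 12.5 and 14.5 CPM in the controls and 19.3, 17.5 and 21.8 CPM after epinephrine. Its epinephrine samples were all above its controls (log2 fold change 0.61, SE 0.13, FDR 0.0550), and it rose without control 1 (0.53, FDR 0.000620). Of its 50-base windows 26.4% occur in other H2 genes. H2-M3, which presents formylated peptides, was at 0.58 (SE 0.25, FDR 0.285), and at 0.66 (FDR 0.101) without control 1.

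Of the 5 other loading and trimming genes, Pdia3 rose. It encodes ERp57, a disulfide isomerase of the loading complex that also folds other glycoproteins, and had 807, 832 and 842 CPM in the controls and 1147, 1144 and 1157 CPM after epinephrine. The log2 fold change was 0.47 (SE 0.08, FDR 0.0154), yet it passed in only 1 of the 6 fits that each left out a sample, the fit without control 1 (0.46, FDR 2.39e-08), with an FDR up to 0.146 in the others. Calr (calreticulin, a lectin chaperone of the same complex) had 930, 625 and 667 CPM in the controls and 1127, 1085 and 1139 CPM after epinephrine. Here too the groups were separate, with control 1 the control nearest to the epinephrine samples (log2 fold change 0.59, SE 0.15, FDR 0.0798), and Calr rose without it (0.79, FDR 2.94e-12). Both proteins also serve protein folding in the endoplasmic reticulum at large. DESeq2 called 3 of the 5 genes, against 5.07% of all genes, and edgeR without control 1 called 4 of them, 3 higher and 1 lower, against 12.1% and 9.46% of all genes.

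Interferon-induced genes outside the members were mostly lower. Of 49 listed, 40 were tested, 33 with a log2 fold change below 0 and 7 above, and their median was -0.27 against -0.00 over all genes. Some of its genes, Irf1 among them, are also counted above or among the signalling genes. At an FDR under 0.05, 2 fell (5%, against 0.612% of all genes) and 1 rose (2.5%, near the 2.02% of all genes), and DESeq2, which called 5.07% of all genes, called 4. Groups did not overlap for 16 lower genes, 40.0% of those tested against 13% of all genes, and for 2 higher ones, 5% against 14.3%. The β-cell markers had the same share, with 8 of 20 lower and separate, and their part in this result was not tested. Parp14, a mono-ADP-ribosyltransferase, fell from 23.6, 19.0 and 19.0 CPM in the controls to 13.6, 13.2 and 12.0 CPM after epinephrine (log2 fold change -0.67, SE 0.12, FDR 0.0298). Dtx3l, a ubiquitin ligase, fell from 32.7 to 36.6 CPM over the controls to 23.1 to 25.9 CPM over the epinephrine samples (-0.50, SE 0.09, FDR 0.0331), and its exons overlap those of Parp9 on the other strand. Isg20, an exonuclease, rose from 14.5, 20.9 and 20.3 CPM to 32.1, 35.8 and 36.4 CPM (0.90, SE 0.14, FDR 0.0153).

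All 3 calls depended on the samples used, and the number called in the list depended on the processing. Limma on log2(FPKM + 1) and on log2(FPKM + 0.1) each called 1, of 262 and 259 genes called in all. With the offset for length and GC content 5 were called, of 1329 in all. Parp14 and Dtx3l each passed in 1 of the 6 fits that left out a sample, the fit without control 1, and Isg20 passed in 3. The median of the list held its value in these fits, between -0.28 and -0.24. The median deviation of the 40 genes from their own means was 0.08, 0.14 and 0.09 in log2 CPM in the controls and -0.14, -0.06 and -0.13 after epinephrine, so all 3 epinephrine samples lay below all 3 controls. Without control 1, 8 of 41 tested genes fell (19.5%, against 9.46% of all genes) and 3 rose (against 12.1%), with Parp14 at -0.56 (FDR 0.000130), Dtx3l at -0.45 (FDR 0.000171) and Isg20 at 0.75 (FDR 1.35e-07). Several of the genes most strongly induced by interferon were near or under the detection limit in both groups, with Isg15 at 0.114 to 0.397 CPM, Cxcl10 at 0.114 to 0.463 CPM and Cxcl9 at 0 in every sample. None of these 3 passed the filter, and Isg15 and Cxcl10 had their highest values after epinephrine.

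The interferon receptors and their JAK-STAT signalling genes all passed the filter on low counts, with Socs1 at only 0.751 to 1.74 CPM. All 12 were tested, 4 above and 8 below 0, with a median log2 fold change of -0.02. In the main edgeR fit and by DESeq2 0 were called, with 4 at an unadjusted edgeR p under 0.05, against 17.1% of all genes. Jak1, the kinase shared by both interferon receptors, had 225, 209 and 188 CPM in the controls and 174, 161 and 171 CPM after epinephrine, all lower, at -0.30 (SE 0.09, FDR 0.151). Ifnar2, a chain of the type I receptor, was higher in every epinephrine sample, at 0.33 (SE 0.12, FDR 0.196). Without control 1 Jak1 fell (-0.24, FDR 0.00236), as did the kinase Jak2 (-0.25, FDR 0.00447), and Ifnar2 rose (0.28, FDR 0.0370). These were 16.7% lower and 8.33% higher of the list, against 9.46% and 12.1% of all genes.

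**Figure D4:**
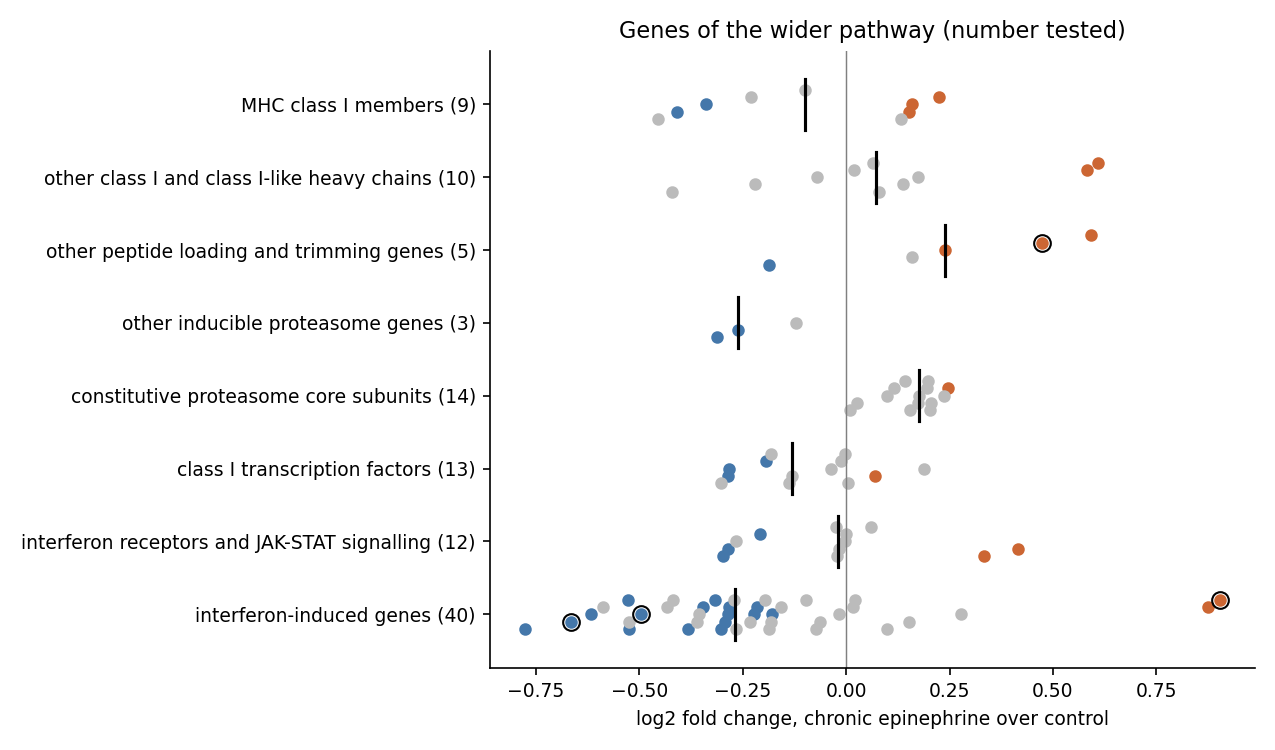
Log2 fold change (horizontal axis, chronic epinephrine over control) of each tested gene in the class I members and 7 wider lists, with the number tested in brackets. Orange and blue mark genes whose groups do not overlap, higher and lower, grey those that overlap, black rings an FDR under 0.05 and vertical bars the median, which is -0.27 for interferon-induced genes and 0.18 for constitutive proteasome subunits.

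Leukocytes express class I and immunoproteasome genes strongly, so their markers were read beside the members. Of 20 leukocyte markers 3 were tested, and the FPKM of all 20 summed to 3.67, 2.80 and 3.76 in the controls and 7.56, 6.84 and 5.59 after epinephrine. Most of the sum was Coro1a and Cd68, and Cd68, a lysosomal glycoprotein, rose (log2 fold change 2.39, SE 0.33, FDR 0.00906). Coro1a, an actin-binding protein of leukocytes, was higher in every epinephrine sample (0.99, SE 0.22, FDR 0.0593) and rose without control 1 (1.00, FDR 0.00161), while Csf1r overlapped between groups (-0.32, FDR 0.786). The defining marker Ptprc (CD45) was at 0 to 0.09 FPKM, and Cd3d and Nkg7 were at 0 in every sample. Fibroblast markers summed to 0.44 to 6.17 FPKM and endothelial markers to 0.18 to 0.50 FPKM, in both cases with groups that overlapped. Of these markers the endothelial Vwf was lower in every epinephrine sample (-0.93, FDR 0.309) and the fibroblast Pdgfra higher (1.02, FDR 0.250), and Col1a1, a collagen, overlapped (2.11, FDR 0.340) but rose without control 1 (3.45, FDR 0.000676). The part of these cell types, and of hepatocytes, in the members' values was not tested.

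For H2-K1, B2m and Tap1 the non-member genes of most similar pattern over the 6 samples were taken from 10812 genes with a mean of at least 5 CPM, by Pearson r of log2 CPM. For H2-K1 they were Pgm1 (r = 0.993), Cnih1 (0.991) and Prom1 (0.988). Those nearest to B2m were Crls1 (0.996), Ikbip (0.992) and Odr4 (0.992), and those nearest to Tap1 were Col16a1 (0.993), Sgsm3 (0.990) and Exog (0.988). None of these is a class I gene. Among the pairs of members, the highest values were those of H2-K1 with H2-D1 (r = 0.946), Tap2 with Tapbp (0.914), Psmb8 with Psmb9 (0.877) and Tapbp with Nlrc5 (0.876). The lowest were those of B2m with Tap2 (-0.916), Tapbp (-0.871) and Nlrc5 (-0.816), followed by Tap1 with Psmb9 (-0.741), whose starts lie back to back. With 6 points that share libraries, and control 1 apart from the rest, these values are descriptions only.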

How the data were processed

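MIN6 cells were profiled by RNA-seq on an Illumina Novaseq6000 in 3 control and 3 chronic epinephrine samples, grouped by their labels. The authors deposited an expected count for each gene, not scaled between samples, and FPKM values, scaled for length and library size. The aligner, counting tool, annotation and strand setting are not given in the sources used here, and the submitters' processing notes name GRCm38. The deposited table also holds columns of functional annotation, which were not used. Of the expected counts, 8.34% were not whole (tolerance 1e-06), and all were rounded.

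Genes kept by filterByExpr were normalized by TMM and compared in edgeR 4.0.16 (R 4.3.3) by its quasi-likelihood test, with group as the only term and Benjamini-Hochberg adjustment over all 12747 genes tested. An FDR under 0.05 called a gene, and at least 2-fold was a further threshold. The SE of a log2 fold change is its size over the square root of the F statistic. Single values and ratios used exact two-sided permutation tests. Members of a list were counted and their median given, with no test of the list. The members and lists were chosen with earlier results of these data known. Genes were named if they were members, passed the FDR threshold in a pathway list (at most 5, or the 2 of smallest p where fewer than 2 passed), had the highest mean FPKM of a marker list, or were the 3 most similar in pattern to H2-K1, B2m or Tap1. Psme2, the constitutive subunits, Creb1, Jak2, Slc2a2, Ucn3, Ins1, Chgb, Cd68, Csf1r, Vwf, Pdgfra, Col1a1, Psma6, Ptprc, Cd3d, Nkg7, Alb, Isg15, Cxcl9 and Cxcl10 were named after their values were seen. A gene that the naming rule selects is not reported here.

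Gene positions come from GENCODE M21 (GRCm38), where 22255 of 22298 identifiers were found, and promoters are from RefSeq on GRCm38.p6. Alternatives were DESeq2 size factors, upper quartile scaling, library size only, DESeq2 1.42.0, limma 3.58.1 on log2(FPKM + 1) and log2(FPKM + 0.1), no filter, at least 10 counts in every sample, a replicate block, each sample left out in turn and, chosen after seeing the data, an offset for the length and GC content of transcripts (splines with 4 degrees of freedom each, per sample). With totals of 15017100 to 18127200 counts, limits from 3 counts cover counting error only.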

Additional observations from a re-analysis of the deposited data

How the results depend on the processing

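H2-K1, H2-D1, Tap2, Psmb8 and Psmb9 kept their direction in all 16 alternatives, and no member passed the FDR threshold in any but 1, without control 1, where 3 did (0 to 3 members over the 6 samples left out). The number of genes called moved from 335 to 729 with DESeq2, 1329 with the offset for length and GC content and 47 to 2798 with a sample left out, and the share of calls that were higher from 76.7% to 60.9% with DESeq2, 52.8% with the offset and 84.3% with the replicate block. With a sample left out this share was 56.2% without control 1, 81.5% and 78.6% without controls 2 and 3, and 93.6%, 97.9% and 93.5% without chronic epinephrine 1, 2 and 3. With the 2-fold threshold the number called moved from 92 to 43 with limma on log2(FPKM + 1) and to 33 to 211 with a sample left out. The cause was not tested.

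Directions turned for B2m, Nlrc5, Tap1 and Tapbp among the members. B2m was at -0.000225 with the offset, Nlrc5 at 0.0681 and 0.28 with limma on log2(FPKM + 1) and log2(FPKM + 0.1), and with a sample left out Nlrc5 ran from -0.21 to 0.0330, Tap1 from -0.00347 to 0.37 and Tapbp from -0.36 to 0.0479. The median of the other heavy chains was -0.0334 with DESeq2 and -0.0297 with no filter, which include genes of very low count, and -0.0495 to 0.10 with a sample left out. That of the constitutive proteasome subunits ran from -0.00822 (without control 1) to 0.28, that of the class I transcription factors from -0.17 to -0.0273 (without control 1) and that of the interferon receptor and JAK-STAT genes from -0.0519 to -0.00313. The latter was -0.0521 with limma on log2(FPKM + 0.1), and the interferon-induced median was -0.21 with limma on log2(FPKM + 1). With the offset, which called 1329 genes, 1 was called in each of 3 lists that had 0 in the main fit. These were the other inducible proteasome genes, the class I transcription factors and the interferon receptor and JAK-STAT genes. Over all results and alternatives, 374 values kept their side and direction, 50 moved, 10 reversed and 3 newly passed.

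Replicate numbers were not treated as pairs. Deviations of samples with the same number correlated at 0.0257, 0.112 and -0.0601 across genes, and nothing in the labels says that a number marks a shared batch. With the number as a block, 178 genes and 0 members were called, Isg20 passed (FDR 0.0241), and the calls of Pdia3, Parp14, Dtx3l, Ins1 and Chgb were lost (FDR 0.0570 to 0.110). Nlrc5 had only 11 to 15 counts a sample, and 9 of the 49 interferon-induced genes were too low to test.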

Other observations

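Class II presentation genes, which professional antigen presenting cells use for peptides taken up from outside, were almost absent from these cells. Of 11 listed, H2-DMa was the only one tested, and H2-Ab1, H2-Eb2, H2-DMb2, H2-Oa and H2-Ob had 0 counts in every sample. The class II transactivator Ciita was at 0 to 0.04 FPKM and the invariant chain Cd74 at 0 to 0.31 FPKM. H2-DMa, which edits class II peptides, had 1.49, 1.71 and 1.06 CPM in the controls and 1.78, 2.19 and 3.50 CPM after epinephrine, with no overlap between groups. The log2 fold change was 0.79 (SE 0.32, edgeR FDR 0.255).

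Erap1, which trims peptides in the endoplasmic reticulum before loading, and Canx (calnexin), which folds free heavy chains, differed in opposite directions. Erap1 had 98.1, 107 and 108 CPM in the controls and 93.8, 92.8 and 88.8 CPM after epinephrine, at -0.19 (SE 0.08, FDR 0.291). Canx had 611, 614 and 586 CPM in the controls and 741, 684 and 711 CPM after epinephrine, at 0.24 (SE 0.08, FDR 0.174). Both had groups that did not overlap, as 27.3% of tested genes did, and neither passed the FDR threshold in the main edgeR fit. DESeq2, which called 3 of the 5 loading and trimming genes, is not given gene by gene here. Without control 1 Erap1 fell (-0.23, FDR 0.00301) and Canx rose (0.25, FDR 0.000500). Tapbpl, which exchanges peptides on loaded class I molecules, had overlapping groups at 0.16 (SE 0.12, FDR 0.558). These genes were chosen after their values were seen.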
